A study of Mus musculus with 6 samples.

Results

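Expression of the EphB receptors and their ephrin-B ligands was examined in mouse medulloblastomas with and without Crebbp, the gene of a histone acetyltransferase that serves as a transcriptional coactivator. The 8 listed genes were Ephb1, Ephb2, Ephb3, Ephb4, Ephb6, Efnb1, Efnb2 and Efnb3, chosen by name. Each was represented by the array feature with exactly 1 gene symbol and, where a gene had several such features, by the one with the highest mean over the 6 arrays. This gave 7 of the 8 genes among 22180 measured genes, 4 receptors and 3 ligands. For Ephb2 no feature carried the symbol in the annotation used, and it was not analysed here.

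RNA from whole tumours was hybridised to Affymetrix whole-transcript arrays, 1 array per tumour. The knockout group held 3 tumours of genotype Math1Cre::CrebbpFl/FlSmoM2Fl/+, and the wild type group held 3 tumours of genotype Math1Cre::SmoM2Fl/+. Both groups carried SmoM2, an active form of Smoothened that drives Sonic hedgehog medulloblastoma, and a tamoxifen-dependent Cre (Math1CreERT2 in the descriptions). The Math1 (Atoh1) promoter directs this Cre to granule neuron progenitors, so other cells of the tumour would keep an intact Crebbp. Tamoxifen (1 mg) was injected on postnatal day 5, and tumour tissue was taken on postnatal day 60. The age label gives day 5, read here as the day of induction. Separate litters or cages are not stated in the labels, and the p-values reflect no more than the scatter among these 6 arrays. In such bulk RNA, fewer cells of a type and less RNA per cell cannot be told apart.

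Eph receptors are receptor tyrosine kinases that bind ephrins on a touching cell. Ephrin-B ligands span the membrane, so binding sends a forward signal into the receptor-bearing cell and a reverse signal into the ligand-bearing cell. In the developing cerebellum, reverse signalling through ephrin-B and the regulator Rgs3 is known to dampen the attraction of granule cell precursors to the chemokine Cxcl12. In blood vessels Efnb2 marks arteries and its receptor Ephb4 marks veins.

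The promoter sequences of 4 members are shown, since CREB-binding protein, the product of Crebbp, is recruited by CREB to the cAMP response element (CRE). They are the 250 bases before the RefSeq start on GRCm38.p6, from chr5:137349859-137350108 (plus strand) for Ephb4, chr16:21204545-21204794 (plus strand) for Ephb3, chrX:99135811-99136060 (plus strand) for Efnb1 and chr8:8661243-8661492 (minus strand) for Efnb2. Capitals mark the CRE core TGACG, or CGTCA on the other strand. Ephb4 is shown because it had the largest difference between the groups, and the other three because they held the core.
Ephb4: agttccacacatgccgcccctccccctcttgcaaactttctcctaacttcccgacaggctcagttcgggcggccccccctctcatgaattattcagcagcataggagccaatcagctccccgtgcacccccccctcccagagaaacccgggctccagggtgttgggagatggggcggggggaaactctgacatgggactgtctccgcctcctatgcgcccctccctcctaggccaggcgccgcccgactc
Ephb3: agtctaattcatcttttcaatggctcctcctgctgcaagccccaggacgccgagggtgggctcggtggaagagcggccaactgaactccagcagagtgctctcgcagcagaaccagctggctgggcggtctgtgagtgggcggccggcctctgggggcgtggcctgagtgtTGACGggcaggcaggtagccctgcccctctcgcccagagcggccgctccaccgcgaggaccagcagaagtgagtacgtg
Efnb1: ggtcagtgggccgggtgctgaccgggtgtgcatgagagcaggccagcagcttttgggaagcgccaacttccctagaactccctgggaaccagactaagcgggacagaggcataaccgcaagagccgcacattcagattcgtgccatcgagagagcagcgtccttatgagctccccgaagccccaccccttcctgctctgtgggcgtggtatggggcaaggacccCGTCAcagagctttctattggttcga
Efnb2: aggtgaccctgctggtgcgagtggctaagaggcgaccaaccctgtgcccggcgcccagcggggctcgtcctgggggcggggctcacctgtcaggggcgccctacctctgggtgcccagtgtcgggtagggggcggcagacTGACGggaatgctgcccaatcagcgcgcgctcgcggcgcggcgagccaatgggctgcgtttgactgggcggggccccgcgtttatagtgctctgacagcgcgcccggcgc

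A promoter was in the RefSeq table for 7 of the 8 genes, Ephb2 among them, and Efnb3 was the one without an entry. The full CRE, TGACGTCA, was in 0 of these 7 windows and in 1.62% of 27025 promoters of the same length. The core was in 3 of the 7, against 17.9% of all promoters. It lay 79 bases before the start in Ephb3, 26 bases in Efnb1 and 110 bases in Efnb2. The GLI site GACCACCCA (TGGGTGGTC on the other strand) was in 0 of 7 windows and 0.211% of all promoters, and the palindrome CAGCTG, an E-box of the kind that Atoh1 binds, was in 1 of 7 (Ephb3) and 12.8% of all. The GC box GGGCGG, searched on both strands and bound by SP and KLF factors, was in 4 of 7 windows and 32.9% of all. Ephb3 held 2 copies, Ephb4 held 4, Ephb6 held 5 and Efnb2 held 3. The share of G and C ran from 54% in Ephb1 to 76.8% in Ephb6, against a median of 52% over all promoters. It was above the upper quartile of all promoters (60.8%) in 5 of the 7 windows. Each match describes these letters only.

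Values are log2 expression after robust multi-array averaging (RMA), so a difference of 1 is a doubling. Crebbp itself had log2 levels of 11.24, 11.34 and 11.20 in knockout tumours, against 11.80, 11.76 and 11.70 in wild type tumours, and the groups did not overlap. Its log2 change, always given as knockout minus wild type, was -0.50 (SE 0.09, limma adjusted p = 0.0948). The deleted exons are not given, and the feature may hold probes outside them. The knockout arrays carried the female pattern, with Xist at 12.34 against 5.44 in wild type arrays, and the wild type arrays carried the male pattern, with Kdm5d at 4.70 in knockout and 9.34 in wild type arrays. Genotype and sex therefore cannot be told apart in any comparison that follows. Over all genes 46 passed an adjusted p of 0.05 in limma.

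None of the 7 measured members passed that threshold over all genes (0 of 7, against 0.207% of all genes). At an unadjusted p under 0.05 in limma there were 2 of 7, Ephb4 and Efnb3, against 13.8% of all genes. At the adjusted threshold of 0.05 the test without moderation also called 0 members. The same 2 were the members whose groups did not overlap, against 19.6% of all genes. Of these, Ephb4 was higher (10.2% of all genes had non-overlapping groups in that direction) and Efnb3 lower (9.43%) in knockout tumours. The median log2 change of the 7 members was -0.0005 (range -0.32 to 0.93), beside 0.0039 over all genes. With 3 arrays against 3 the exact two-sided permutation test cannot give a p below 0.1, which is the value it gave for Ephb4 and for Efnb3.

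**Figure D1:**
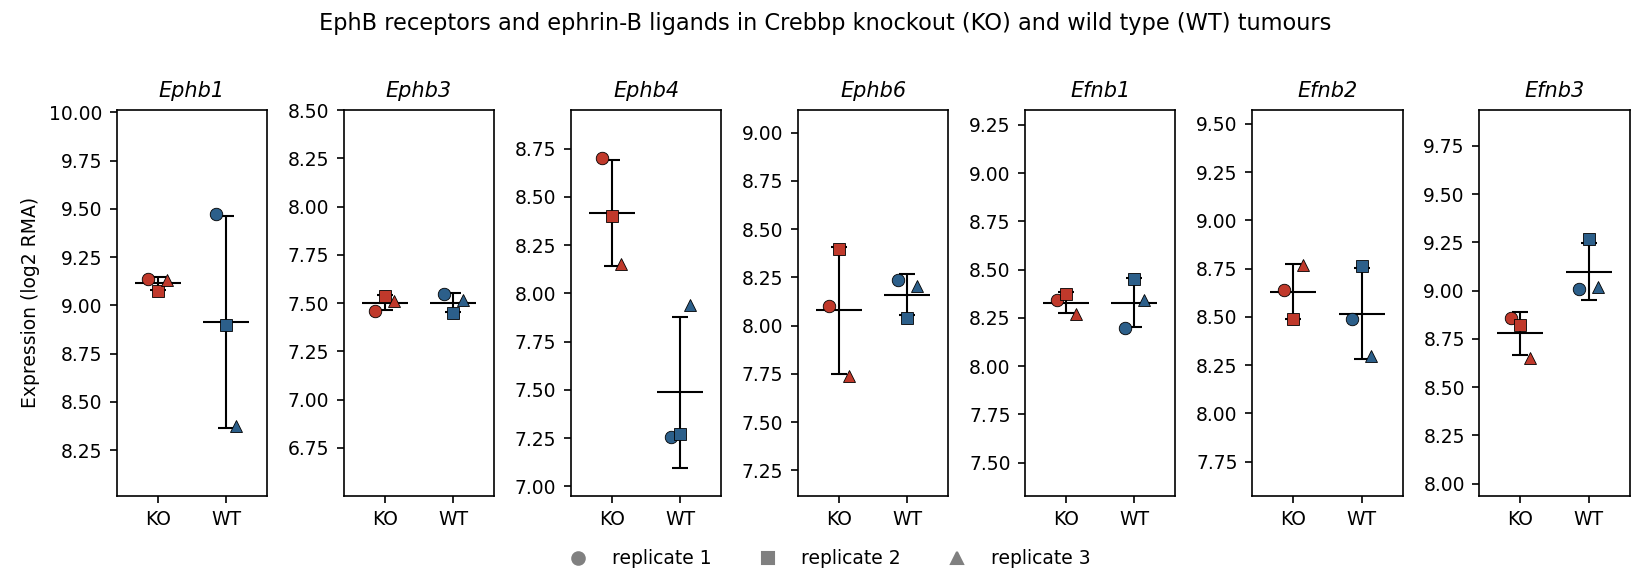
Log2 RMA expression of the 7 measured members in knockout (KO, red) and wild type (WT, blue) tumours, 1 symbol per array, with the mean (wide bar) and SD (n = 3). Every panel spans 2 log2 units. The groups are apart in Ephb4, where the lowest knockout value is 8.15 and the highest wild type value 7.94, and in Efnb3, where the highest knockout value is 8.86 and the lowest wild type value 9.01.

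Among the receptors, Ephb4, which binds Efnb2 and is known from venous endothelium, had the largest difference of the family. Log2 levels were 8.70, 8.40 and 8.15 in knockout tumours, against 7.25, 7.27 and 7.94 in wild type tumours. All knockout values lay above all wild type values, with a gap of 0.21 between the nearest arrays, knockout replicate 3 and wild type replicate 3. The log2 change was 0.93 (SE 0.21, 95% interval 0.43 to 1.42), a level 1.90 times that of wild type tumours, and the limma adjusted p was 0.152. A change at least this large in either direction occurred in 0.753% of all genes. With wild type replicate 3 left out the change was 1.15 (limma adjusted p = 0.0506), and with knockout replicate 1 left out it was 0.79 (limma adjusted p = 0.359). It was positive under every setting tried, with adjusted p-values from 0.0506 to 0.397, the last from the test without moderation.

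Ephb1, a receptor of growing axons and neural progenitors, varied more among wild type tumours than among knockout tumours. Its log2 levels were 9.14, 9.07 and 9.13 in knockout tumours, against 9.47, 8.90 and 8.38 in wild type tumours. The knockout values lay inside the wild type range, and the SD was 0.036 in knockout and 0.55 in wild type tumours (n = 3 each). A wild type SD at least that large was seen in 1.65% of all genes, and a knockout SD at least as large as that of Ephb1 in 92.9%. The difference in spread was not tested. The log2 change was 0.20 (SE 0.24, 95% interval -0.36 to 0.76, limma adjusted p = 0.773). Leaving out wild type replicate 1 gave 0.48, and leaving out wild type replicate 3 gave -0.073.

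Ephb1 was also the one member with a second feature. That feature had log2 levels of 7.18, 7.24 and 6.95 in knockout tumours, against 7.56, 7.12 and 7.06 in wild type tumours. Its mean difference was -0.12, opposite in sign to that of the brighter feature, and its groups overlapped too. In both features wild type replicate 1 was the highest and wild type replicate 3 the lowest of the wild type arrays. With the mean of both features the log2 change of Ephb1 was 0.04 (limma adjusted p = 0.955).

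Ephb3, which with Ephb2 guides commissural axons, was the member with the least difference. Log2 levels were 7.46, 7.54 and 7.51 in knockout tumours, against 7.55, 7.45 and 7.52 in wild type tumours. The knockout values lay inside the wild type range. The change was -0.0005 (SE 0.08), and its 95% interval of -0.20 to 0.19 corresponds to 0.874 to 1.14 times the wild type level.

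Ephb6, a family member whose kinase domain lacks catalytic activity, varied more among knockout tumours. Its log2 levels were 8.10, 8.40 and 7.74 in knockout tumours, against 8.24, 8.04 and 8.20 in wild type tumours. Knockout replicate 2 was the highest and knockout replicate 3 the lowest of all 6 arrays, so the knockout range enclosed the wild type range. The change was -0.08 (SE 0.16, 95% interval -0.46 to 0.30, limma adjusted p = 0.874), and it was 0.089 without knockout replicate 3.

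Among the ligands, Efnb3, a ligand known as a midline barrier to corticospinal axons, was lower in every knockout array. Log2 levels were 8.86, 8.82 and 8.65 in knockout tumours, against 9.01, 9.27 and 9.02 in wild type tumours. The gap between the groups was 0.15. The log2 change was -0.32 (SE 0.11, 95% interval -0.58 to -0.06), which is 0.801 times the wild type level, with a limma adjusted p of 0.282. Over all settings the change lay between -0.37 and -0.23 and the adjusted p between 0.168 and 0.559.

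Efnb2, the arterial ligand of Ephb4, had overlapping groups. Its log2 levels were 8.64, 8.49 and 8.77 in knockout tumours, against 8.49, 8.76 and 8.30 in wild type tumours. The highest knockout array and the highest wild type array were nearly level. The change was 0.11 (SE 0.14, 95% interval -0.21 to 0.44, limma adjusted p = 0.774). Leaving out wild type replicate 3 gave 0.0028, and leaving out wild type replicate 2 gave 0.24. The intervals of Efnb2 and Ephb4 touch near 0.43 and 0.44, and the difference between their changes was not tested.

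Efnb1, a ligand whose mutation causes craniofrontonasal syndrome in humans, lies on the X chromosome. Log2 levels were 8.34, 8.37 and 8.27 in knockout tumours, against 8.20, 8.45 and 8.34 in wild type tumours. The knockout values fell inside the wild type range. The change was -0.0006 (SE 0.10, 95% interval -0.23 to 0.23, limma adjusted p = 0.999), while the groups differed in the sex pattern described above. The 3 members with a CRE core, Ephb3, Efnb1 and Efnb2, had changes of -0.0005, -0.0006 and 0.11. The 3 measured members whose windows lacked it, Ephb1, Ephb4 and Ephb6, had changes of 0.20, 0.93 and -0.08.

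**Figure D2:**
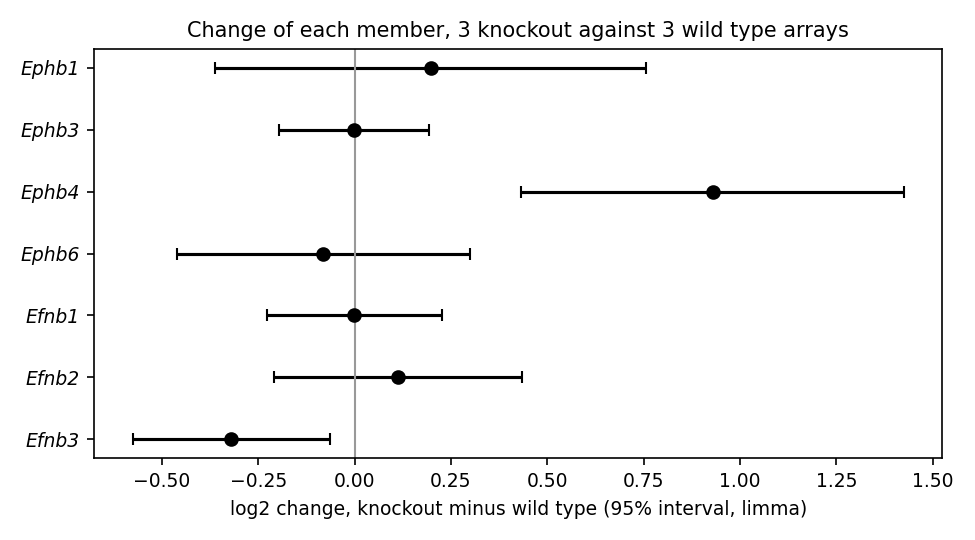
Log2 change of each measured member, knockout minus wild type (points), with the 95% interval from limma (bars), 3 arrays against 3. The intervals of Ephb4 (0.43 to 1.42) and Efnb3 (-0.58 to -0.06) leave out 0, before any adjustment for the number of genes, and the other 5 include it.

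The weight of single tumours differed between members. Leaving out 1 array at a time moved the change of Ephb4 between 0.79 and 1.15 and that of Efnb3 between -0.37 and -0.23, with the sign kept. The changes of Ephb1 (-0.073 to 0.48), Ephb3 (-0.0282 to 0.0215), Ephb6 (-0.24 to 0.089) and Efnb1 (-0.067 to 0.0605) changed sign in at least 1 case, and that of Efnb2 (0.0028 to 0.24) stayed positive.

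**Figure D3:**
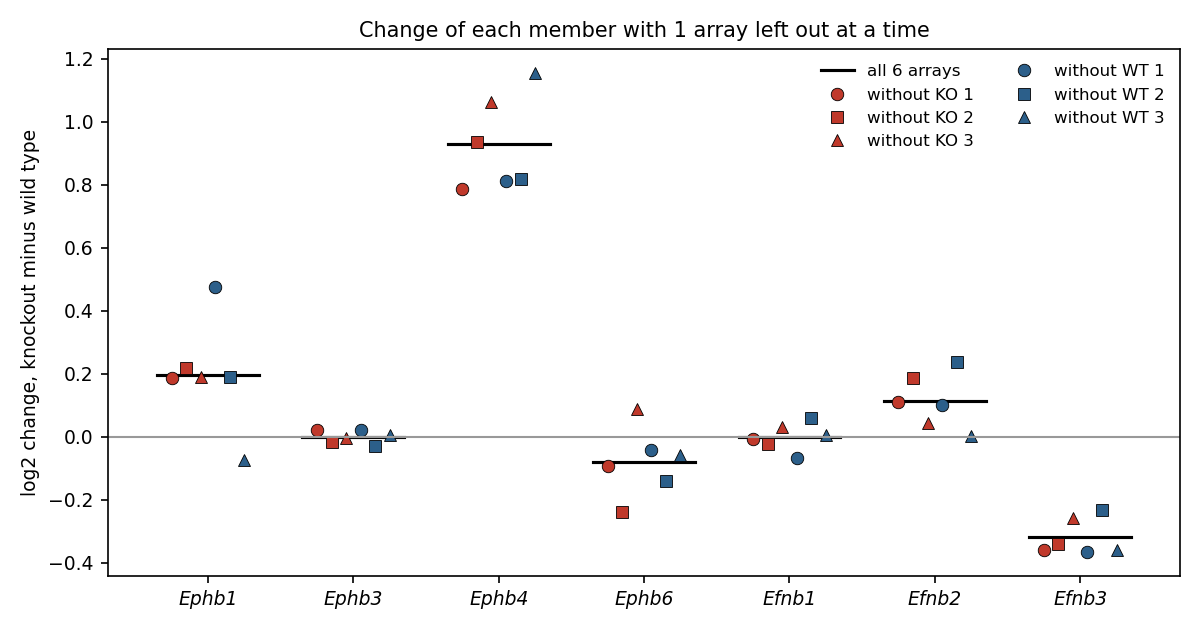
Log2 change of each measured member, knockout minus wild type, with all 6 arrays (black line) and with 1 knockout (red) or wild type (blue) array left out (symbols). Ephb4 stays between 0.79 and 1.15 and Efnb3 between -0.37 and -0.23, while the symbols of Ephb1, Ephb3, Ephb6 and Efnb1 lie on both sides of 0.

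The genes whose pattern over the 6 arrays was most like that of Ephb4 were Myl4, a myosin light chain (Pearson r = 0.999), Tst, a mitochondrial sulfurtransferase (r = 0.996), and Pitrm1, a mitochondrial protease (r = 0.995). Their log2 changes were smaller, 0.30, 0.38 and 0.21, with limma adjusted p-values of 0.257, 0.24 and 0.389. With 6 arrays in 2 groups, 485 genes (2.19%) had an r above 0.9 with Ephb4, so an r above that cut was not rare. The named genes were picked as the highest of all genes, and their likeness was not tested.

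Because Ephb4 and Efnb2 are vascular genes, markers of vessels were set beside them. Of 10 endothelial markers 5 had positive and 5 negative changes, with a median of -0.0056, and 0 passed. The mean log2 level of that list was 7.46 to 7.69 in knockout arrays and 7.46 to 7.64 in wild type arrays. The angiopoietin receptor Tek had the smallest p in the list, with log2 levels of 7.50, 7.35 and 7.70 in knockout tumours, against 6.94, 6.90 and 7.21 in wild type tumours. Its change was 0.50 (SE 0.13, limma adjusted p = 0.184), and in both Tek and Ephb4 wild type replicate 3 was the highest wild type array. The knockout arrays differed, with replicate 3 the highest for Tek and the lowest for Ephb4. Among wild type arrays, replicate 3 also had the highest mean of endothelial, granule neuron, Purkinje and inhibitory, astrocyte and Bergmann glia, and fibroblast markers. It did not for arterial, venous, progenitor, microglial or oligodendrocyte lineage markers. Arterial markers had a median of -0.04 with 0 of 7 past the threshold, and mean levels of 7.27 to 7.41 in knockout and 7.31 to 7.44 in wild type arrays. The Notch target Hey1 (change -0.33) had the smallest p in that list. It averaged 11.58 in knockout and 11.91 in wild type tumours, far above the mean of the list. Whether that signal came from arterial cells was not tested.

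The venous markers went in both directions, and none of the 5 passed the threshold. Their mean level was 7.40 to 7.57 in knockout arrays and 7.59 to 7.79 in wild type arrays, without overlap. Nr2f2, the transcription factor of venous identity, had log2 levels of 7.79, 7.51 and 7.51 in knockout tumours, against 8.30, 8.37 and 8.33 in wild type tumours (change -0.73, SE 0.10, limma adjusted p = 0.0557). It passed under 5 alternatives, with adjusted p-values of 0.0313 to 0.0475. Nrp2 and Vwf had changes of -0.59 and -0.35, while the apelin receptor Aplnr had one of 0.47, and these were named after their values were seen. Within the knockout group, replicate 1 had the highest level of both Nr2f2 and Ephb4. Within the wild type group, Nr2f2 was highest in replicate 2 and Ephb4 in replicate 3, and the changes of these genes had opposite signs. The part of vascular cells in the Ephb4 difference was not tested.

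Markers of other cell types were read in the same way. Markers of granule neuron progenitors averaged 10.9 to 11.1 in knockout and 11.2 to 11.3 in wild type arrays, with 9 of 11 lower in knockout tumours, and those of microglia 8.92 to 9.20 in knockout and 9.23 to 9.45 in wild type arrays, with 9 of 10 lower in knockout tumours. The progenitor and microglial markers with the smallest p were Ccnd2 (change -0.69) and Itgam (-0.63). Markers of differentiated granule neurons averaged 10.08, 9.38 and 10.13 in knockout arrays and 9.26 to 9.42 in wild type arrays. Those of Purkinje cells and inhibitory neurons averaged 8.23, 7.34 and 8.21 in knockout arrays and 6.59 to 7.39 in wild type arrays. For both lists knockout replicate 2 lay inside the wild type range and the other knockout arrays above it. Markers of astrocytes and Bergmann glia averaged 9.76 to 9.92 in knockout and 9.25 to 9.90 in wild type arrays. The granule neuron markers went both ways, with 5 positive and 5 negative changes between -1.14 (Neurod1) and 2.72 and a median of 0.13. All 7 measured Purkinje and inhibitory markers had positive changes (median 0.73, Gad1 at 0.47), as did 7 of 10 astrocyte and Bergmann glia markers (median 0.38, Aldoc at 1.47). Fibroblast and meningeal markers averaged 7.84 to 8.17 in knockout and 7.77 to 8.40 in wild type arrays, with 6 positive and 2 negative changes, a median of 0.08 and Foxc1, one of those that were lower, at -0.45. No marker of these lists passed the threshold.

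Oligodendrocyte lineage markers had mean levels of 8.94, 8.74 and 8.88 in knockout arrays, against 9.42, 9.26 and 8.76 in wild type arrays. Changes were negative in 8 of 9, with a median of -0.32. As with Ephb1, this mean was highest in replicate 1 and lowest in replicate 3 of the wild type arrays. Pdgfra, the marker with the smallest p (change -0.45), did not share that order. Its wild type levels were 12.15, 12.07 and 12.19, with replicate 3 the highest. The part of these cell types in the values of Efnb3, Ephb1 and the other members was not tested.

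Of the genes known to carry EphB forward signals, 22 of 24 were measured and 0 passed the threshold, with 6 positive and 16 negative changes and a median of -0.06. Groups did not overlap in 6 of the 22 (27.3%), against 19.6% of all genes. An unadjusted p under 0.05 in limma was found for 6 of the 22, against 13.8% of all genes. Grb10, an adaptor that binds the activated Ephb1 receptor and is imprinted, had log2 levels of 10.45, 9.06 and 9.05 in knockout tumours, against 7.38, 7.29 and 7.04 in wild type tumours. Knockout replicate 1 was well above the other knockout arrays, and all knockout values lay above all wild type values. Its change was 2.29 (SE 0.35, limma adjusted p = 0.0637), and without knockout replicate 1 it was 1.82 (adjusted p = 0.00958), past the threshold. The kinase Src, which acts next to Eph receptors, had a change of -0.33 (SE 0.08, limma adjusted p = 0.182), with 9.30, 9.25 and 9.21 in knockout and 9.56, 9.62 and 9.57 in wild type tumours.

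Of the genes of ephrin-B reverse signalling, all 14 were measured and 0 passed the threshold, with a median change of 0.04. An unadjusted p under 0.05 in limma was found for 0 of the 14, against 13.8% of all genes. Groups did not overlap in 1 of the 14 (7.14%), against 19.6% of all genes. The PDZ-domain protein Sdcbp (syntenin) had a change of -0.17 (SE 0.08) and the polarity protein Pard6b one of 0.16 (SE 0.11), with limma adjusted p-values of 0.411 and 0.561. Rgs3 averaged 7.32 ± 0.09 in knockout and 7.31 ± 0.13 in wild type tumours (SD, n = 3 each), a change of 0.01 with a 95% interval of -0.23 to 0.25. The chemokine receptor Cxcr4 had a change of 0.12 and its ligand Cxcl12 one of -0.24, with overlapping groups in both. These last 3 were named for their known role and not by the rule.

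Of the proteases and gamma-secretase subunits that cut ephrins and Eph receptors, 9 of 10 were measured and 0 passed, with a median of -0.06. Adam10, the sheddase that cleaves ephrins and their receptors, had a change of -0.12 (SE 0.09). The matrix metalloproteinase Mmp2 had log2 levels of 8.58, 8.45 and 8.59 in knockout tumours, against 9.45, 9.71 and 9.13 in wild type tumours. The groups did not overlap, and the change was -0.89 (SE 0.15, limma adjusted p = 0.0816). Without wild type replicate 3 it passed, at -1.04 (adjusted p = 0.0335). Mmp9 had a change of -0.58 (SE 0.11, limma adjusted p = 0.119), with 6.31, 6.51 and 6.31 in knockout and 7.14, 6.85 and 6.88 in wild type tumours.

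Of other binding partners 11 of 12 were measured and 0 passed, with 9 positive changes and a median of 0.20. Efna5, an ephrin-A that also binds Ephb2, had log2 levels of 8.57, 8.56 and 8.29 in knockout tumours, against 7.83, 8.30 and 7.53 in wild type tumours, with a slight overlap (change 0.59, SE 0.19, limma adjusted p = 0.248). Epha4, an EphA receptor that binds ephrin-B ligands, had a change of 0.33 (SE 0.16, adjusted p = 0.423). The NMDA receptor subunit Grin2a, of the receptor complex that EphB receptors join at synapses, had a change of 0.61 (SE 0.18, adjusted p = 0.222), and without knockout replicate 2 it was 0.83 (adjusted p = 0.0352, limma).

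In the sister class, 1 of 14 EphA receptors and ephrin-A ligands passed the threshold, against 0.207% of all genes. Epha3 rose, by 2.90 on the log2 scale (SE 0.26, limma adjusted p = 0.0121), with 10.24, 10.80 and 10.47 in knockout tumours, against 7.58, 8.14 and 7.08 in wild type tumours. Its adjusted p was 0.076 when wild type replicate 1 was left out and 0.0805 when knockout replicate 3 was. The EphA class had non-overlapping groups in 6 of 14 genes and the EphB class in 2 of 7, against 19.6% of all genes. The difference between the classes was not tested.

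**Figure D4:**
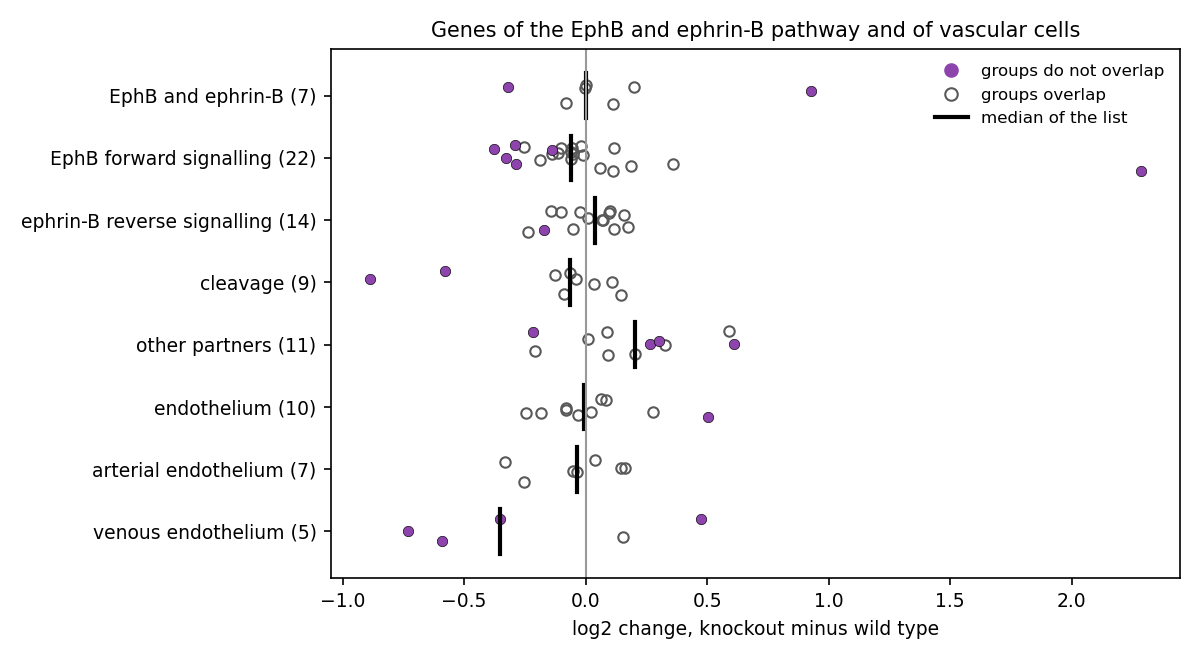
Log2 change, knockout minus wild type, of each measured gene (circles) in the EphB and ephrin-B family, its pathway lists and vascular marker lists, with the number measured in brackets and the median as a bar. Filled circles are genes whose groups did not overlap. Ephb4 (0.93) stands apart from the other 6 members, and Grb10 (2.29) and Mmp2 (-0.89) lie farthest out in their lists.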

How the data were processed

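The authors deposited log2 values in 1 table, and the submitters' processing notes name RMA and oligo as tools, with no version. Background correction, equalised array distributions and a summary per feature are the usual steps of RMA, which takes out shifts common to most genes and shrinks the changes of dim features. The table held 41345 features and neither detection calls nor depths, so precision rests on having 3 arrays a group. Values were used as deposited.

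Features were named through the platform annotation (23521 with 1 symbol, 1814 with several, 16010 unnamed here), and 99.2% of those with 1 symbol matched RefSeq GRCm38.p6. No level filter was set. Groups were taken from the titles. Testing used lmFit and eBayes (two-sided) of limma 3.58.1 under R 4.3.3, with Benjamini-Hochberg adjustment over 22180 genes and a threshold of 0.05. The script was tested on simulated data, with 200 changed genes in each of 5 draws. It recovered 19.6% of log2 changes of 0.5, 76.8% of changes of 1 and 96% of changes of 2. Of its calls 6.01% were false. Changes of 0.5 or less would therefore mostly be missed. The members, gene lists and settings were chosen with earlier results of these data known, and no list was tested as a set. Named genes were Crebbp, sex-linked genes, all members, those of each pathway list past the threshold or else the 2 with the smallest p, the marker with the smallest p of each cell type, and the 3 genes most like Ephb4. Adam10, Rgs3, Cxcr4, Cxcl12, Epha4, Nrp2, Vwf and Aplnr were added afterwards. Alternatives covered scaling, filters, the variance model, array weights, several features per gene, a replicate block, X and Y genes and leaving out each array. Promoters came from RefSeq. No batch was given in the labels.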

Additional observations from a re-analysis of the deposited data

How the results depend on the processing

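The number of members past the threshold was 0 with all arrays and under all 18 alternatives. Ephb4, Efnb2 and Efnb3 kept their sign throughout. Efnb1, which has no value without X and Y genes, changed sign with array weights (0.0148), and leaving out 1 array gave ranges of -0.0727 to 0.48 for Ephb1, -0.0282 to 0.0215 for Ephb3, -0.24 to 0.0894 for Ephb6 and -0.0672 to 0.0605 for Efnb1. Over all genes the count of 46 became 77 without the dimmest 25% of genes, 107 with an intensity trend and 4 without moderation. It was 12, 18 and 99 without wild type replicates 1, 2 and 3, and 15, 128 and 4 without knockout replicates 1, 2 and 3. Pathway genes outside the EphA class numbered 1 without the dimmest 25% (Grb10), 2 with a trend (Grb10 and Mmp2) and 1 with array weights (Mmp2), and 0 to 2 with an array left out, against 0. Of the EphA class 0 passed without moderation and 0 to 1 with an array left out, against 1. Cell type markers past the threshold numbered 1 with median centring, quantile normalisation and either filter (Nr2f2) and 2 with a trend, and 0 to 5 with an array left out, against 0. The 5 were Car8, Cbln3, Ccnd2, Gad2 and Grin2c, without knockout replicate 2. The filters leave fewer genes to adjust over and the left-out arrays fewer samples, while counts with an array left out moved both up and down. The causes of these differences were not tested.

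The titles number tumours 1 to 3 in each group, but nothing says that a number marks a pair, and same-numbered arrays deviated from their group means with correlations of -0.029, 0.052 and 0.1. With a replicate block 12 genes passed and 0 members did, and the log2 change of Ephb4 was 0.93 (limma adjusted p = 0.217). For Crebbp the adjusted p was 0.0486 once the dimmest 50% had been removed and 0.0263 with a trend, at a log2 change of -0.50. The table holds no signal over background for single features. A rough floor comes from sex-linked genes read in arrays of the sex that does not express them. These 12 values ran from 4.31 to 5.74, with a median of 5.11. Of the 7 members, 0 had means at or below that level in both groups. The lowest group mean of a member was 7.49, for Ephb4 in wild type tumours. The background of each member's own feature is not known.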
